A study of Caenorhabditis elegans with 12 samples.

Results

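The titin-like and giant sarcomere proteins of Caenorhabditis elegans were represented by 5 genes chosen by name: unc-22, unc-89, ttn-1, ketn-1 and dim-1. All 5 were among the 23515 genes of the deposited table. Whole larvae were kept at 15 °C from the embryo to the third larval stage, and their polyadenylated RNA gave 12 stranded sequencing libraries. The groups were the wild-type strain N2, strain RW364 carrying unc-120(st364), and strain XA8001 carrying fhod-1(tm2363), with 4 libraries each, and the labels list no other allele or agent. The product of unc-120 is the worm homolog of serum response factor, which controls transcription in muscle, and that of fhod-1 is a formin, one of the proteins that build actin filaments. The title of the series asks whether these proteins act on striated muscle by separate routes. The source-name label gives the mutant strain names the other way round, so the groups follow the genotype, strain and description labels. The labels do not say whether the 4 libraries of a group came from separate cultures, so the p-values measure the spread between these libraries only.

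Body-wall muscle of the worm is striated, and its sarcomeres hold thick filaments centred on M-lines and thin filaments anchored at dense bodies. Titin-like proteins are very long chains of immunoglobulin and fibronectin type III domains that run along these filaments and position, stiffen or signal from them. Twitchin, encoded by unc-22, binds thick filaments in the A-band, carries a protein kinase domain and is named for the twitching of its mutants. The gene unc-89 encodes the worm obscurin, an M-line protein with immunoglobulin repeats and kinase domains that is needed for ordered thick filaments. The gene ttn-1 encodes a giant titin-like protein of the I-band, and ketn-1 encodes kettin, an immunoglobulin-repeat protein of thin filaments near the dense bodies. The gene dim-1 encodes a much smaller immunoglobulin-domain protein of the region around dense bodies, known from mutations that relieve the muscle disorganization of certain unc-112 mutants.

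Of the 5 genes, 4 were among the 13 longest of the 23389 genes with an annotated exonic length. Positions are on WBcel235 with exonic lengths from the Ensembl annotation, where exonic length is the union of all annotated exons. The gene ttn-1 (WBGene00006436, chromosome V, 6120909 to 6202632, minus strand) had 56044 exonic bases in 65 merged exons, the longest of all, and a longest predicted protein of 15188 residues. The gene unc-89 (WBGene00006820, chromosome I, 4035702 to 4090885, plus strand) had 25942 exonic bases in 51 merged exons and ranked 4. The gene unc-22 (WBGene00006759, chromosome IV, 11972697 to 12011007, minus strand) had 23368 exonic bases in 37 merged exons and ranked 8. The gene ketn-1 (WBGene00004130, chromosome V, 2781939 to 2807860, minus strand) had 15712 exonic bases in 29 merged exons and ranked 13. With 2483 exonic bases in 12 merged exons and a longest predicted protein of 640 residues, dim-1 (WBGene00001000, chromosome X, 8050466 to 8058220, minus strand) ranked 2659, well below the giant genes but still among the longer genes of the worm.

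Several of these genes make isoforms of very different length, which the gene-level values do not separate. The annotation lists 15 transcripts of 8602 to 45903 bases for ttn-1 and 16 transcripts of 4734 to 24703 bases for unc-89. The 11 transcripts of ketn-1 ran from 9783 to 15309 bases, while the 9 of unc-22 were nearly uniform at 19308 to 21601 bases. Genes on the other strand share few or no exonic bases with the members: 93 bases of ZK829.9 with unc-22 and 49 bases of F54E2.2 and 87 of F54E2.8 with ketn-1, all 3 with mean levels under 1. The unc-22 exons also hold 123 bases of the noncoding RNA gene ZK617.19 on the other strand and all 130 bases of ZK617.7 on the same strand, neither of which had a row in the table. The potassium channel gene exp-2, at a mean of 6.74, lies within ttn-1 on the other strand and shares 0 exonic bases with it. Whether the counting used strand is not given in the sources used here.

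The deposited values were length-scaled and proportional to TPM, which divides reads by gene length before scaling, with the same total of 638200 in each library. Depth was recovered from genes with a single exon, whose low values lay within 0.05 of a whole number of reads for 97.96% to 99.6% of values per library, where 10% is given by chance. This gave about 19.2 to 28.0 M reads in genes per library. The members drew many reads at that depth: about 2695 to 16006 reads per library for unc-22, 1878 to 9316 for unc-89, 2364 to 8414 for ketn-1, 2862 to 11271 for dim-1 and 1507 to 8668 for ttn-1. These read numbers rest on the full exonic length, and if only the shortest transcript of ttn-1 had been counted its lowest library would hold 231 reads. Counting error was therefore small beside the spread between libraries. Pearson correlations of log2 values across tested genes, which are not independent replicates, ran from 0.947 to 0.997 between pairs of libraries.

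The mutated genes were examined as a check of the labels. The level of unc-120 was 9.63 to 15.9 in the wild type, 25.6 to 43.1 in unc-120(st364) and 17.4 to 20.3 in fhod-1(tm2363). The level of fhod-1 was 4.00 to 6.24, 2.23 to 5.97 and 3.21 to 6.16 in the same order. The fhod-1 level did not set the fhod-1(tm2363) libraries apart, because the ranges overlap. Whole-larva markers of muscle were present: each of 6 body-wall muscle markers and 6 pharyngeal muscle markers was above 0 in every library.

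The small protein was the most abundant message. Per unit of length, dim-1 had a mean level of 75.4 over the 12 libraries, with only 4.75% of genes in the table above it. Twitchin and kettin were alike, at 9.75 for unc-22 and 9.68 for ketn-1. The gene unc-89 followed at 5.23 and ttn-1 was lowest at 2.10. This order, with dim-1 first, unc-22 and ketn-1 next, then unc-89 and then ttn-1, was found in all 12 libraries. The neighbours unc-22 and ketn-1 did not separate: unc-22 was the higher in 5 of 12 libraries, with an unc-22 to ketn-1 ratio of 0.767 to 1.31. The level of dim-1 was 25.4 to 68.6 times that of ttn-1 and 5.51 to 11.5 times that of unc-22 within a library. The gene length used in the deposited values is not given in the sources used here, and the levels of ttn-1 and unc-89, whose isoforms differ most in length, depend on it.

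Levels of the thick-filament and M-line members came first. The unc-22 levels in replicates 1 to 4 were 7.43, 13.3, 16.1 and 5.59 in the wild type, 4.46, 3.29, 10.3 and 10.5 in unc-120(st364) larvae, and 7.68, 12.2, 7.78 and 18.4 in fhod-1(tm2363). The 3 groups overlapped, and within each group the highest library was 2.40 to 3.19 times the lowest. The unc-89 levels were 3.46, 6.85, 7.64 and 2.93 in the wild type, 2.75, 2.06, 5.76 and 5.82 in unc-120(st364) larvae, and 4.10, 7.38, 4.30 and 9.67 in fhod-1(tm2363). Within every group the 4 libraries ranked in the same order for unc-89 as for unc-22.

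The members of the I-band and thin filament followed the same libraries. The ttn-1 levels were 0.985, 2.81, 2.73 and 1.29 in the wild type, 0.925, 0.766, 2.52 and 2.52 in unc-120(st364) larvae, and 1.70, 2.93, 1.85 and 4.16 in fhod-1(tm2363). The ketn-1 levels were 9.08, 16.0, 13.9 and 6.16 in the wild type, 5.07, 4.28, 11.2 and 11.6 in unc-120(st364) larvae, and 7.59, 10.9, 5.96 and 14.4 in fhod-1(tm2363). In both genes unc-120(st364) replicates 1 and 2 were low and replicates 3 and 4 were high, and the groups overlapped. The dim-1 levels were 67.5, 90.9, 88.6 and 64.5 in the wild type, 44.2, 32.8, 64.1 and 76.4 in unc-120(st364) larvae, and 83.6, 97.8, 71.8 and 122 in fhod-1(tm2363). Of the 4 unc-120(st364) libraries, 3 were below every wild-type library in dim-1, and replicate 4 was not.

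**Figure D1:**
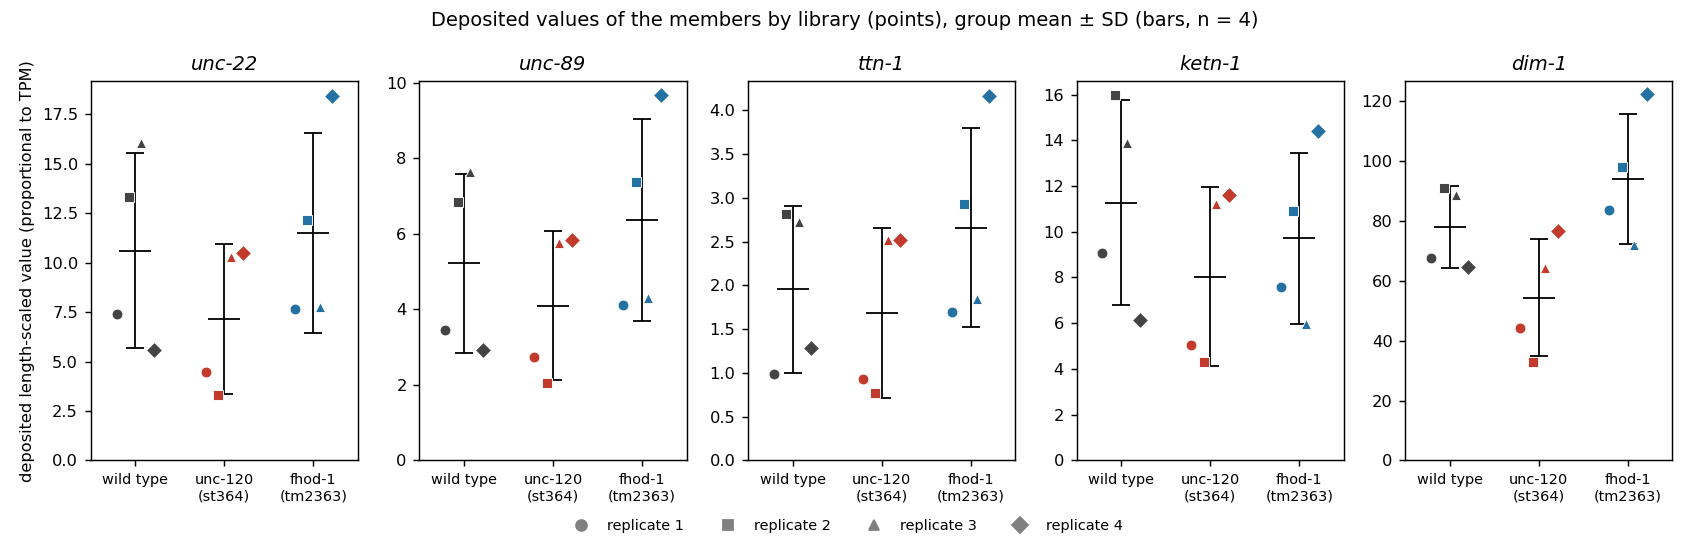
Deposited length-scaled level of each gene (linear axis from 0, proportional to TPM) by group, with 1 point per library and bars at the mean ± SD of 4 libraries. The groups overlap for every gene. The lowest library of all 5 genes is unc-120(st364) replicate 2, and the highest is fhod-1(tm2363) replicate 4 for every gene but ketn-1, where it is wild type replicate 2.

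Group means with their spread showed how wide these ranges were. The mean unc-22 level was 10.6 ± 4.92 in the wild type, 7.13 ± 3.79 in unc-120(st364) larvae and 11.5 ± 5.06 in fhod-1(tm2363) (SD, n = 4 in each group here and below). The mean ketn-1 level was 11.3 ± 4.47, 8.04 ± 3.90 and 9.71 ± 3.75 in the same order. The mean dim-1 level was 77.9 ± 13.8, 54.4 ± 19.6 and 93.8 ± 21.7. In these genes the unc-120(st364) mean was the lowest of the 3, by less than the spread between replicates for unc-22 and ketn-1. The unc-89 mean was 5.22 ± 2.37, 4.10 ± 1.98 and 6.36 ± 2.66, and the ttn-1 mean was 1.95 ± 0.952, 1.68 ± 0.970 and 2.66 ± 1.14.

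No member passed the test on the deposited values, and in no comparison did the groups of a member stand clear of each other (0 of 5 each). Of all tested genes, 4.21% did so for unc-120(st364) and 15.5% for fhod-1(tm2363) when set against wild type, and 8.24% between the mutants. Genes at or above a value of 1 in 4 or more libraries were fitted together with limma on log2(value + 1), which understates the change of low genes such as ttn-1. All 5 members passed this filter, and ttn-1 reached the value of 1 in 9 of 12 libraries. Between unc-120(st364) and wild type, 0 of 5 members were called at an adjusted p under 0.05, against a background of 1.2% of the 12831 tested genes. The log2 fold change was -0.54 for unc-22 (SE 0.38, limma adjusted p = 0.895), -0.29 for unc-89 (SE 0.33, adjusted p = 1.00) and -0.15 for ttn-1 (SE 0.29, adjusted p = 1.00). It was -0.47 for ketn-1 (SE 0.34, limma adjusted p = 0.909) and -0.57 for dim-1 (SE 0.24, adjusted p = 0.508). The dim-1 difference had an unadjusted limma p of 0.0347 and a 95% interval of -1.09 to -0.05, the only one of these 5 intervals that did not reach 0.

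Neither did a member pass in the other comparisons. Between fhod-1(tm2363) and wild type, 0 of 5 members were called, against 5.23% of all tested genes, and the log2 fold changes ran from -0.18 for ketn-1 (limma adjusted p = 0.794) to 0.32 for ttn-1 (adjusted p = 0.551). Between unc-120(st364) and fhod-1(tm2363), 0 of 5 were called, against 1.97% of all tested genes. The dim-1 difference there was -0.82 (SE 0.24, limma adjusted p = 0.119, unadjusted p = 0.00432), and those of the giant genes ran from -0.67 for unc-22 (adjusted p = 0.50) to -0.29 for ketn-1 (adjusted p = 0.815). Without unc-120(st364) replicate 4 the dim-1 difference was -1.01 and was called (limma adjusted p = 0.0463). The comparisons with wild type share the wild-type libraries, and all 3 share groups, so their values are not independent of each other.

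The libraries differed in how the values of long genes stood against those of short ones. For each library, the slope of its log2 values, taken against the mean of all libraries, on log2 exonic length was computed over the tested genes other than the members. It was -0.047, 0.057, 0.11 and -0.13 in wild type replicates 1 to 4, -0.040, -0.26, 0.14 and 0.14 in unc-120(st364) larvae, and -0.019, 0.017, -0.12 and 0.15 in fhod-1(tm2363). Each group held libraries with slopes below and above 0. The slope did not separate the groups: the 2-sided exact permutation p was 1.00 for unc-120(st364) against wild type, 0.914 for fhod-1(tm2363) against wild type and 0.857 for unc-120(st364) against fhod-1(tm2363).

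The length effect was visible in genes grouped by exonic length. The 85 other tested genes of at least 8 kb had a median difference from their 12-library mean of -0.67 (log2) in unc-120(st364) replicate 2 and -0.62 in wild type replicate 4. In fhod-1(tm2363) replicate 4 and unc-120(st364) replicate 3 the same median was 0.53 and 0.46. Genes under 1 kb, of which 4087 were tested, moved less and mostly the other way, with medians of -0.15 to 0.16 over the 12 libraries. Short and long genes moved the same way in wild type replicate 1 (-0.05 and -0.17) and fhod-1(tm2363) replicate 2 (0.08 and 0.17). The giant members stood on the side of the long genes in unc-120(st364) replicates 2 and 3, wild type replicate 4 and fhod-1(tm2363) replicate 4. Twitchin (unc-22) was at -1.20 in unc-120(st364) replicate 2 and at 0.98 in fhod-1(tm2363) replicate 4.

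**Figure D2:**
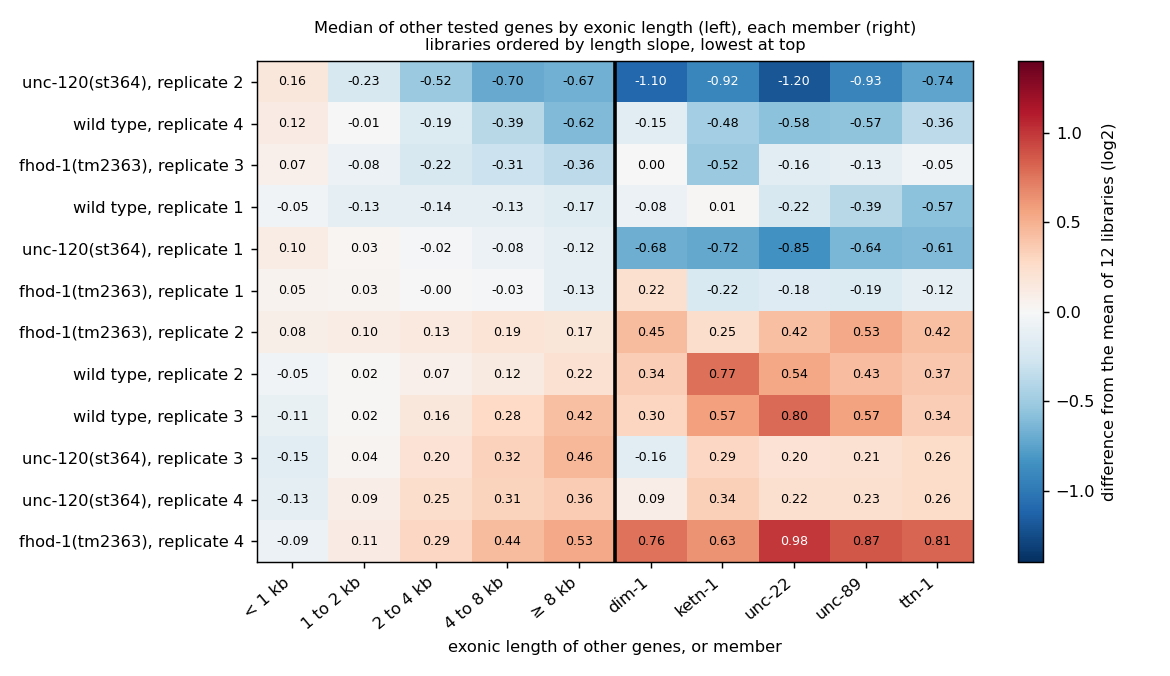
Difference of each library (rows, ordered by length slope from lowest at the top to highest) from the mean of the 12 libraries on the log2 scale, as the median of other tested genes in 5 bins of exonic length (left of the black line) and for each member (right). Colour and the printed value give the difference. Genes of at least 8 kb run from -0.67 in the top row to 0.53 in the bottom row, and all 5 members are below 0 in the top row and above 0 in the bottom row.

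The level of every member rose with the length slope over the 12 libraries. Pearson's r was 0.868 for ketn-1 (2-sided permutation p = 0.00027), 0.848 for unc-22 (permutation p = 0.00056), 0.846 for unc-89 (permutation p = 0.00068) and 0.811 for ttn-1 (permutation p = 0.00147). Spearman's rho was 0.846, 0.825, 0.818 and 0.776 for the same genes, with permutation p-values of 0.00083, 0.00161, 0.00187 and 0.00402. For dim-1, the short gene, r was 0.703 (permutation p = 0.0105) and rho was 0.608 (permutation p = 0.0410). After Benjamini-Hochberg adjustment over the 5 relations the permutation p-values were at most 0.0105 for r and 0.0410 for rho.

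The relation was then computed without the libraries at the extremes of the slope. Without unc-120(st364) replicate 2 and fhod-1(tm2363) replicate 4, which lay farthest from the median slope, r was 0.788 for ketn-1 (permutation p = 0.00902), 0.731 for unc-89 (permutation p = 0.0207), 0.708 for unc-22 (permutation p = 0.0230) and 0.690 for ttn-1 (permutation p = 0.0327). For dim-1 it was 0.316 (permutation p = 0.383), so its pooled relation rests on those libraries. Spearman's rho without them had permutation p-values of 0.0103 to 0.0672 for the giant genes, and none passed 0.05 after adjustment over the 5 relations. On values centred on the group means, r was 0.939 for unc-22, 0.915 for unc-89, 0.877 for ttn-1, 0.926 for ketn-1 and 0.966 for dim-1. Within groups, dim-1 thus had an r above that of each giant gene. Steepness on log2(value + 1) differed, at 4.31 log2 units of unc-22 per unit of slope against 2.73 of dim-1. It was 3.77 for ketn-1, 3.65 for unc-89 and 3.05 for ttn-1. This scale understates the change of low genes such as ttn-1, so the order of the genes depends on it. On deposited values the highest library was 5.61 times the lowest for unc-22, 5.44 times for ttn-1 and 4.69 times for unc-89. For ketn-1 and dim-1 it was 3.73 and 3.72 times. The slope itself is a measured property of the libraries, and its source was not tested.

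**Figure D3:**
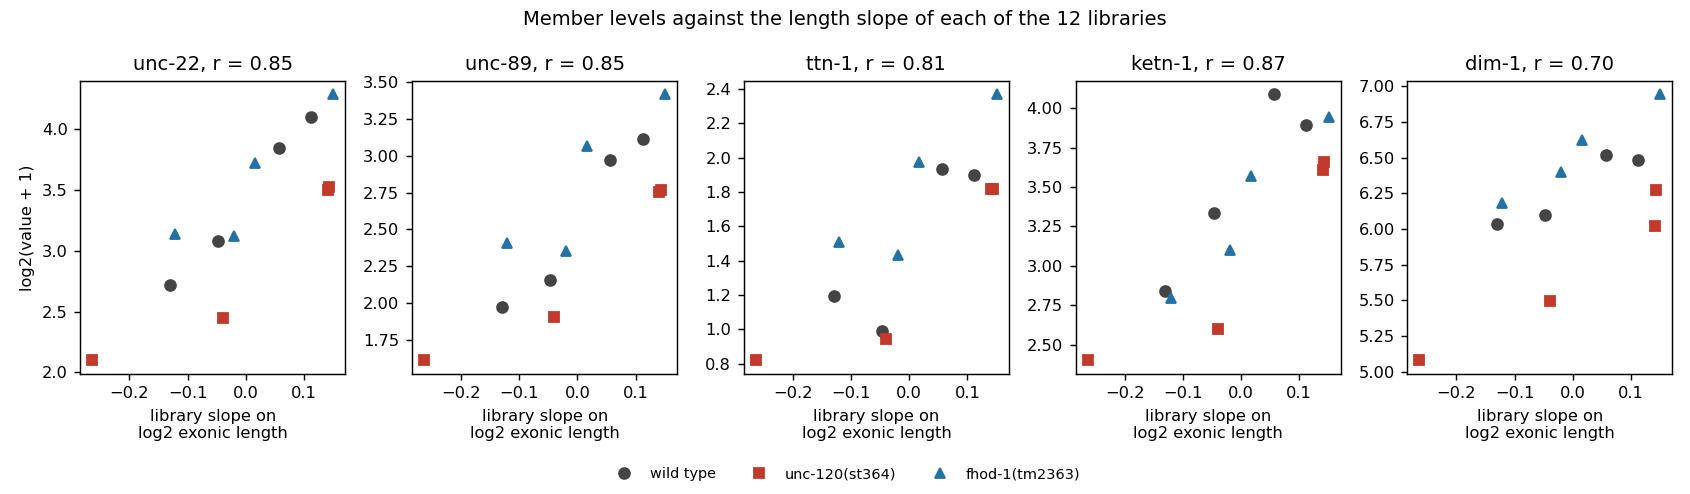
Level of each gene, as log2(value + 1), against the slope of the library on log2 exonic length, with 1 point per library (n = 12) and colour and shape by group. Each title gives Pearson's r over the 12 libraries, from 0.70 for dim-1 to 0.87 for ketn-1. At slopes near -0.04 and near 0.14 the unc-120(st364) points of unc-22 and dim-1 lie below those of the other groups.

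Values corrected for length were therefore set beside the deposited ones. In each library the log2 difference from the 12-library mean was fitted against log2 exonic length with a loess curve over the tested genes other than the members, and the fitted value was subtracted. The spread within groups fell in every member. The log2 SD within a group went from 0.55 to 0.73 before correction to 0.11 to 0.16 after it for unc-22, from 0.51 to 0.66 to 0.05 to 0.21 for ketn-1, and from 0.52 to 0.59 to 0.16 to 0.18 for unc-89. For dim-1 it went from 0.25 to 0.54 to 0.12 to 0.25. The gene ttn-1 kept the widest spread, 0.21 to 0.42 after correction from 0.44 to 0.54 before. No other gene is as long, so its length lay beyond the fitted range and took the correction of the longest fitted gene. The part of this in the remaining spread was not tested. The corrected ttn-1 level had r = -0.659 with the slope (permutation p = 0.0195, and 0.0977 after adjustment over the 5 relations). The corrected ttn-1 values are the least certain of the 5.

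The corrected levels, as log2(value + 1), set 3 members apart in unc-120(st364). For unc-22 they were 3.32, 3.55, 3.54 and 3.54 in the wild type, 2.72, 3.01, 2.92 and 3.09 in unc-120(st364) larvae, and 3.28, 3.47, 3.58 and 3.53 in fhod-1(tm2363). All 4 unc-120(st364) libraries were below all others, and wild type and fhod-1(tm2363) overlapped. For dim-1 they were 6.22, 6.47, 6.35 and 6.21 in the wild type, 5.50, 5.57, 5.85 and 6.05 in unc-120(st364) larvae, and 6.40, 6.49, 6.39 and 6.68 in fhod-1(tm2363). Here too all 4 unc-120(st364) libraries were the lowest. For ketn-1 they were 3.55, 3.84, 3.42 and 3.55 in the wild type, 2.82, 3.27, 3.10 and 3.25 in unc-120(st364) larvae, and 3.22, 3.33, 3.22 and 3.27 in fhod-1(tm2363). In ketn-1 both mutant groups lay below all 4 wild-type libraries and overlapped each other.

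The remaining pair of genes did not separate the groups. The corrected unc-89 levels were 2.41, 2.67, 2.54 and 2.82 in the wild type, 2.19, 2.54, 2.16 and 2.33 in unc-120(st364) larvae, and 2.52, 2.81, 2.86 and 2.64 in fhod-1(tm2363). The unc-120(st364) libraries were mostly the lower, with replicate 2 inside the range of the others. The corrected ttn-1 levels were 1.28, 1.58, 1.25 and 2.16 in the wild type, 1.28, 1.80, 1.15 and 1.35 in unc-120(st364) larvae, and 1.64, 1.70, 2.00 and 1.51 in fhod-1(tm2363). Wild type replicate 4 and unc-120(st364) replicate 2, the libraries with the lowest slopes, were the highest of their groups.

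**Figure D4:**
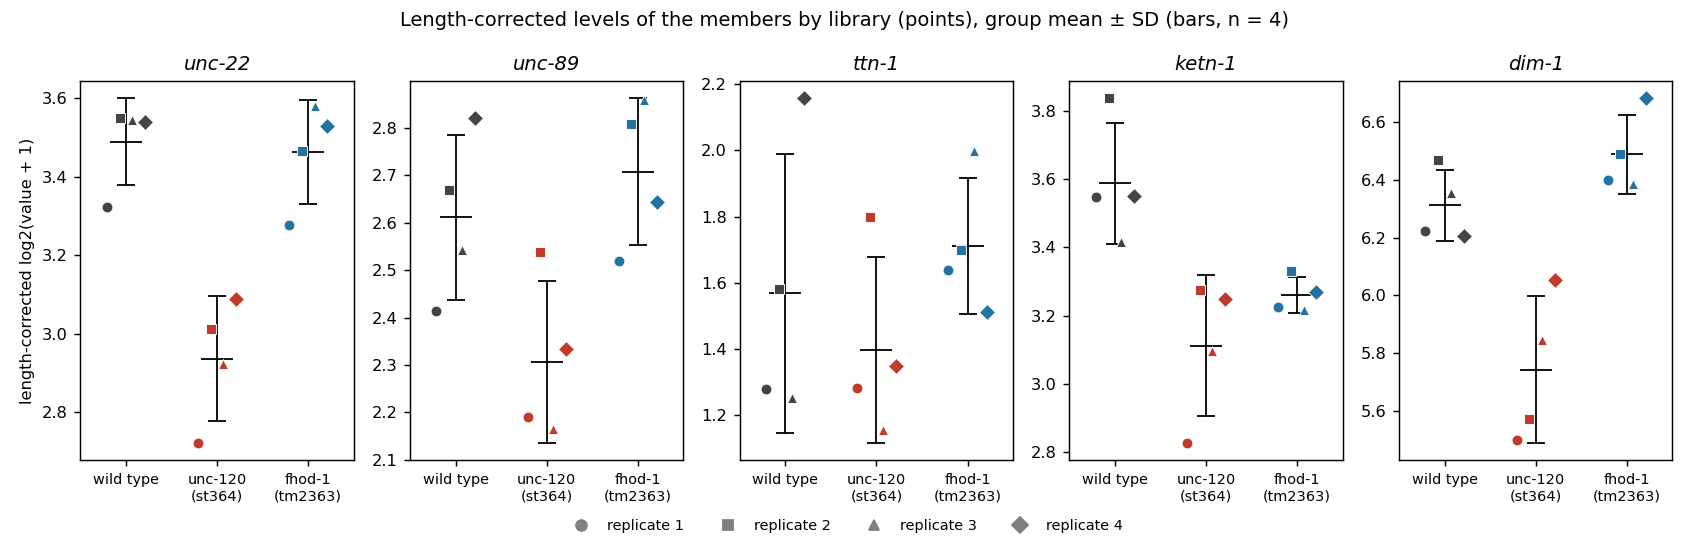
Length-corrected log2(value + 1) of each gene by group, with 1 point per library and bars at the mean ± SD of 4 libraries (the axes do not start at 0). The 4 unc-120(st364) points lie below the 4 wild-type points for unc-22, ketn-1 and dim-1, and the groups overlap for unc-89 and ttn-1.

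After the correction, twitchin, kettin and dim-1 messages were lower in unc-120(st364) than in wild type. In the fit over the 12794 genes with a length, 3 of 5 members were called, all of them lower, where 2.7% of all tested genes were called in either direction and 1.57% were called lower. The log2 fold change was -0.55 for unc-22 (SE 0.10, limma adjusted p = 0.00831), -0.57 for dim-1 (SE 0.13, adjusted p = 0.0320) and -0.48 for ketn-1 (SE 0.11, adjusted p = 0.0397), and 4 of 4 mutant libraries were lower in each. On the scale of value + 1 these are 31.8%, 32.6% and 28.2% below wild type. For unc-89 the value was -0.31 (SE 0.12, limma adjusted p = 0.220) and for ttn-1 it was -0.17 (SE 0.20, adjusted p = 0.754), and neither passed. The same 3 genes had groups that did not overlap, where 4.06% of all tested genes did so in the lower direction. The 2-sided exact permutation p was 0.0286 for each, the smallest that 4 against 4 libraries can give. After adjustment over the 15 tests of members it was 0.0714, so none passed. The fold changes were nearly the same before and after correction, -0.54 and -0.55 for unc-22, and it was the spread that differed.

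These calls were not equally firm. Leaving out each of the 12 libraries in turn, with the correction refitted, unc-22 stayed called in all 12 fits (limma adjusted p of 0.00591 to 0.0347). The dim-1 call was lost in 5 of the 12 fits, without wild type replicate 2 or 3 or without unc-120(st364) replicate 1, 2 or 3, at limma adjusted p-values up to 0.104. The ketn-1 call was kept in only 2 of 12 fits, those without wild type replicate 3 or unc-120(st364) replicate 2, and its adjusted p ranged from 0.0389 to 0.117. Where a call was lost, the log2 fold change was -0.60 to -0.49 for dim-1 and -0.52 to -0.38 for ketn-1. The 4 ketn-1 losses on leaving out a fhod-1(tm2363) library left its fold change at -0.48. With quantile normalization before the correction, dim-1 (limma adjusted p = 0.121) and ketn-1 (adjusted p = 0.0525) were not called. With the slope as a covariate in place of the loess curve, dim-1 was the only one of the 5 called lower (-0.56, limma adjusted p = 0.00345), and unc-22 was at -0.53 (adjusted p = 0.0854) and ketn-1 at -0.46 (adjusted p = 0.130).

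No member was called between fhod-1(tm2363) and wild type after the correction. The count was 0 of 5, where 17.5% of all tested genes were called in either direction. The nearest was ketn-1, at -0.33 on the log2 scale (SE 0.11, limma adjusted p = 0.0595). Its 4 fhod-1(tm2363) libraries were all below the 4 wild-type libraries (exact permutation p = 0.0286, adjusted 0.0714), where 13% of all tested genes did so. The ketn-1 difference was called in 1 of the 12 fits that left out a library, the one without unc-120(st364) replicate 1 (-0.33, limma adjusted p = 0.0337). With the replicate number added to the corrected fit as a block, it was also called (limma adjusted p = 0.0238). Twitchin was at -0.03 with a 95% interval of -0.24 to 0.19 (limma adjusted p = 0.872). The other values were 0.10 for unc-89 (limma adjusted p = 0.572), 0.14 for ttn-1 (adjusted p = 0.624) and 0.18 for dim-1 (adjusted p = 0.334).

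The mutants were also compared directly, and unc-22 and dim-1 were lower in unc-120(st364) larvae than in fhod-1(tm2363) larvae. After the correction, 2 of 5 members were called, both lower, where 5.15% of all tested genes were called in either direction and 2.86% lower. The log2 fold change was -0.75 for dim-1 (SE 0.13, limma adjusted p = 0.00478), which is 40.3% lower on the scale of value + 1. It was -0.53 for unc-22 (SE 0.10, limma adjusted p = 0.00947), which is 30.6% lower on that scale. In each, 4 of 4 unc-120(st364) libraries were below the 4 fhod-1(tm2363) libraries (exact permutation p = 0.0286, adjusted 0.0714), where 7.03% of all tested genes were. Both calls were kept in all 12 fits that left out a library, with limma adjusted p of 0.00215 to 0.0209 for dim-1 and 0.00656 to 0.0385 for unc-22. For unc-89 the difference was -0.40 (SE 0.12, limma adjusted p = 0.0639), for ttn-1 -0.32 (adjusted p = 0.362) and for ketn-1 -0.15 (adjusted p = 0.453). The unc-89 difference was called in 3 of the 12 fits, without wild type replicate 1 (-0.40, limma adjusted p = 0.0460), unc-120(st364) replicate 2 (-0.48, adjusted p = 0.0403) or fhod-1(tm2363) replicate 1 (-0.46, adjusted p = 0.0439). With the replicate number added to the corrected fit as a block, unc-89 was also called (limma adjusted p = 0.0277).

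**Figure D5:**
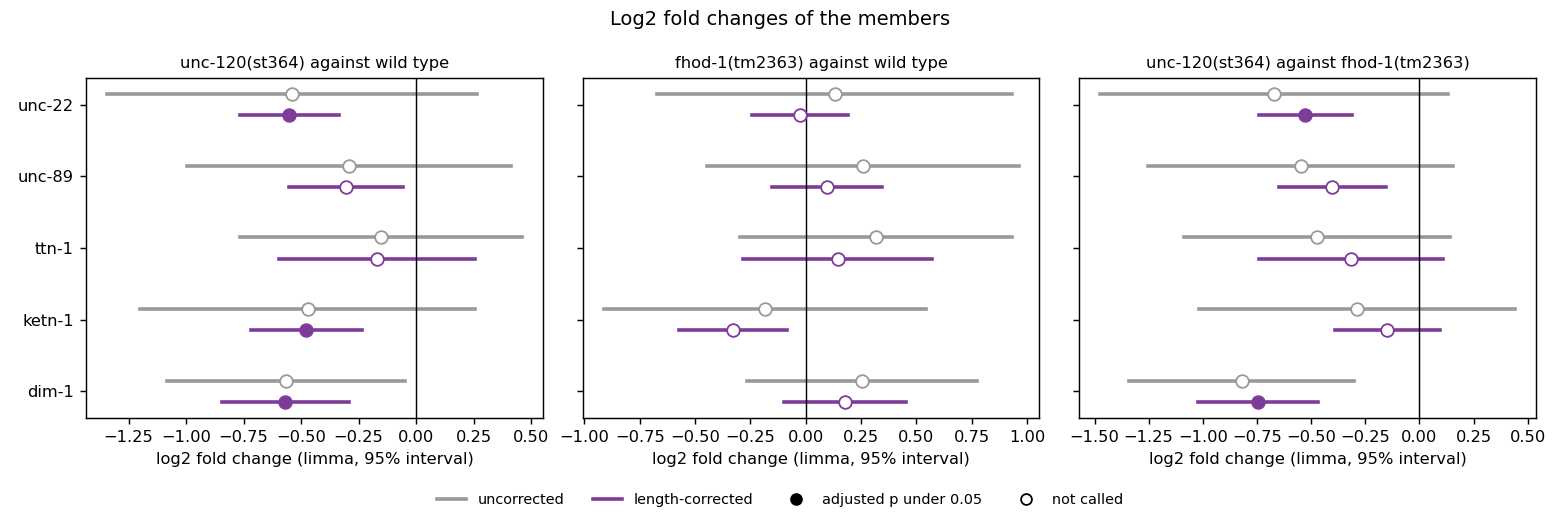
Log2 fold change of each gene with its 95% interval from limma, in the 3 comparisons, for deposited values (grey) and length-corrected values (purple), with filled points where the adjusted p is under 0.05. The purple intervals are shorter than the grey ones. Filled points appear for unc-22, ketn-1 and dim-1 in unc-120(st364) against wild type and for unc-22 and dim-1 in unc-120(st364) against fhod-1(tm2363).

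In RNA of whole larvae, fewer muscle cells and less RNA per muscle cell cannot be told apart. The summed level of 6 body-wall muscle markers (unc-54, myo-3, unc-15, hlh-1, unc-27 and mlc-3) was 1509 to 1967 in the wild type, 993 to 1472 in unc-120(st364) larvae and 1538 to 2056 in fhod-1(tm2363). It was thus lower in the unc-120(st364) libraries, without overlap, in the same group as the lower unc-22, ketn-1 and dim-1. How often other sums of genes do so was not computed. Of the 6 markers, 5 had a log2 fold change below 0 against wild type, and hlh-1 did not. Of the genes in this sum, unc-54, myo-3, unc-15 and mlc-3 also belong to the thick-filament genes described below, and unc-27 to the thin-filament genes. The sum is therefore not independent of those lists, and only hlh-1 is in neither. The summed level of 6 pharyngeal muscle markers was 205 ± 51.5, 209 ± 51.3 and 292 ± 60.5 in the 3 groups, and that of 6 intestine markers was 3344 ± 877, 2290 ± 437 and 2928 ± 513. For hypodermis the sums were 2620 ± 940, 2757 ± 689 and 2231 ± 390, with the collagen bli-1 at a mean under 1, and for molting cycle genes 302.8 ± 112.3, 321 ± 114 and 233 ± 67.3. The neuron sums were 196 ± 11.8, 233 ± 35.1 and 251 ± 21.9, and the germline sums 70.6 ± 18.7, 62.6 ± 19.4 and 51.0 ± 9.22. The part of these markers in the results was not tested.

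Other genes of the thick filament and M-line gave the setting for unc-22 and unc-89. On deposited values 0 of 14 such genes were called in any comparison, as for the members. The median log2 fold change of the 14 was -0.21 in unc-120(st364) against wild type, with 13 of 14 below 0. All tested genes had a median of 0.02 there, with 46.2% below 0. In unc-120(st364) against fhod-1(tm2363) the median of the 14 was -0.45, with 14 of 14 below 0. There all tested genes had a median of -0.06, with 60.3% below 0. After the correction 4 of 14 were called lower and 0 higher, where 1.57% of all tested genes were called lower. They were the myosin heavy chains unc-54 (-1.09, limma adjusted p = 5.18e-04) and myo-3 (-0.81, adjusted p = 9.44e-04), the paramyosin gene unc-15 (-0.74, adjusted p = 0.00962) and the copine-domain gene cpna-1 (-0.44, adjusted p = 0.0158). The unc-22 change of -0.55 lay between those of unc-15 and cpna-1, and the unc-89 value of -0.31, which did not pass, was smaller than all 4. These sizes were not tested against each other. Against fhod-1(tm2363), 5 of 14 were lower in unc-120(st364), where 2.86% of all tested genes were: unc-54, myo-3, unc-15, cpna-1 and unc-82, which encodes a kinase, with log2 fold changes of -0.39 to -0.89. In fhod-1(tm2363) against wild type 1 was lower, unc-54 (-0.43, limma adjusted p = 0.0467), and 1 was higher, unc-82 (0.39, adjusted p = 0.0212). With 17.5% of all tested genes called there, 2 of 14 is no more than the background.

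Genes of the thin filament and dense body gave the setting for ketn-1 and dim-1. On deposited values 0 of 28 were called in any comparison. Their median log2 fold change in unc-120(st364) against wild type was -0.24, with 25 of 28 below 0. All tested genes had a median of 0.02 there, with 46.2% below 0. In unc-120(st364) against fhod-1(tm2363) the median of the 28 was -0.35, with 28 of 28 below 0, where all tested genes had -0.06 and 60.3% below 0. In fhod-1(tm2363) against wild type it was 0.11, where all tested genes had 0.07. After the correction 2 of 28 were called lower, where 1.57% of all tested genes were: pat-4, which encodes the integrin-linked kinase homolog (-0.34, limma adjusted p = 0.0385), and the ALP/Enigma-family gene alp-1 (-0.58, adjusted p = 0.0159). Between the mutants 4 of 28 were lower in unc-120(st364), where 2.86% of all tested genes were: pat-4 (-0.33, limma adjusted p = 0.0340), alp-1 (-0.52, adjusted p = 0.0214), the kindlin homolog unc-112 (-0.51, adjusted p = 0.00645) and the calponin-related gene unc-87 (-0.52, adjusted p = 0.0317). The dim-1 differences in these comparisons were -0.57 and -0.75, beside -0.58 and -0.52 for alp-1. In fhod-1(tm2363) against wild type the profilin gene pfn-3 was higher (0.37, limma adjusted p = 0.0454) and 0 were lower, a count of 1 of 28 under the 17.5% of all tested genes called there.

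The members moved together over the libraries. On deposited values Pearson's r between pairs of members was 0.815 to 0.985 over the 12 libraries, and all 10 pairs had a permutation p adjusted over the 10 of at most 0.00064. After the length correction the pairs differed. The correlation was 0.889 between unc-22 and dim-1 (adjusted permutation p = 0.002), 0.853 between unc-22 and unc-89 (0.002) and 0.824 between unc-89 and ttn-1 (0.00353). Spearman's rho for these pairs was 0.678, 0.853 and 0.755 (adjusted permutation p = 0.0627, 0.0092 and 0.0311). Without the 2 libraries farthest from the median of the gene named first, r was 0.794, 0.700 and 0.773. The pairs unc-22 with ketn-1 (r = 0.705, adjusted permutation p = 0.0214) and unc-89 with dim-1 (0.656, 0.0417) went to 0.374 and 0.382 without such libraries, so they rest on them. The other 5 corrected pairs, with r of 0.224 to 0.546, did not pass. On corrected values centred on the group means, r was 0.868 for unc-89 and ttn-1, 0.687 for unc-22 and unc-89, 0.563 for unc-22 and dim-1, 0.553 for unc-22 and ketn-1 and -0.0975 for unc-89 and dim-1. For ttn-1 and dim-1 it was -0.367, from a pooled 0.224, and for ketn-1 and dim-1 it was 0.503, near the pooled 0.546. The difference between the groups is therefore part of the pooled values of some pairs, with and without dim-1.

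Ratios within a library cancel much of what long genes share, and they were examined after the values had been seen. The unc-22 to unc-89 ratio was 2.03 ± 0.118 in the wild type, from 1.91 to 2.15, and 1.70 ± 0.107 in unc-120(st364), from 1.59 to 1.80. The unc-22 to ketn-1 ratio was 0.867 ± 0.0690 in unc-120(st364) larvae and 1.18 ± 0.138 in fhod-1(tm2363), also without overlap. The ttn-1 to ketn-1 ratio was 0.173 ± 0.0448 in the wild type and 0.273 ± 0.0367 in fhod-1(tm2363), again without overlap (exact permutation p = 0.0286 for each of the 3, and 0.214 after adjustment over the 30 ratio tests). In each comparison 1 of the 6 pairs of giant members did not overlap, and 0 of the 4 pairs with dim-1. Of the 3570 pairs of other genes of at least 8 kb, 11.2% did not overlap in unc-120(st364) against wild type, 14.6% in fhod-1(tm2363) against wild type and 23.3% between the mutants. With a single pair in each comparison, nothing is read from these counts about the members.

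The genes with the most similar pattern on deposited values included other very long genes, among them dig-1 and anc-1, and some short ones, among them B0228.10 at 0.163 kb of exonic length. Over the 12 libraries and 7909 genes with a mean of at least 5, ttn-1 was most like dig-1 (r = 0.994), myo-1 (0.979) and anc-1 (0.967). For unc-89 these were dig-1 (0.983), anc-1 (0.978) and frm-1 (0.964), and for unc-22 T23E7.2 (0.959), anc-1 (0.954) and B0228.10 (0.952). For ketn-1 they were F10G7.5 (0.967), emb-9 (0.967) and let-2 (0.966), and for dim-1 nhl-1 (0.984), F22E12.1 (0.982) and F40F8.5 (0.981). The 50 most similar genes had a median exonic length of 2.28 kb for dim-1 and 3.07 to 4.09 kb for the giant genes, against 1.34 kb for all genes compared. After the correction those medians were 1.30 to 1.82 kb.

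With lengths corrected, the nearest genes changed for most members. They were tag-18 (r = 0.967), B0379.1 (0.940) and cor-1 (0.938) for unc-22, and Y43F8B.1 (0.937), pxl-1 (0.937) and inos-1 (0.936) for unc-89. For ttn-1 they were cex-2 (0.950), dig-1 (0.949) and F47D12.6 (0.930), so that dig-1 appeared in both lists. For ketn-1 they were sid-2 (0.940), T02H6.12 (0.877) and F09F7.5 (0.873), and for dim-1 F22E12.1 (0.962), T12D8.9 (0.959) and F40F8.5 (0.954), of which F22E12.1 and F40F8.5 appeared in both lists. These correlations describe the same 12 libraries with their differing length slopes, and they carry no test.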

How the data were processed

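The deposited table, which the authors' file calls normalized counts, held 1 column per library for 23515 genes. Its columns had equal totals and its steps of single reads scaled with gene length, so the deposited values were taken as TPM up to a constant. Per the submitters' processing notes, Bowtie2 2.2.5, Partek and the build WBcel235 were used. The counting rule and its gene lengths are not given in the sources used here.

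From these values, log2(value + 1) was computed, and genes at or above 1 in 4 or more of the 12 libraries were tested with limma 3.58.1 (lmFit, eBayes with a trend) in R 4.3.3, with 1 mean per group over 3 groups of 4. Calls required a p under 0.05 after Benjamini-Hochberg adjustment over all tested genes. The procedure was tested on simulated data, but the settings and outcome are not given here, so no result above rests on that test. Exonic lengths were the union of exons in Ensembl release 115, which held 99.5% of the identifiers. The length correction was a loess curve per library (span 0.5, degree 1) fitted without the members, with lengths beyond the fitted range taking the nearest fitted length. Permutation tests were exact for 4 against 4 libraries and drew 100000 resamples for correlations, in Python 3.11.15. Single-exon genes with values worth under 20 reads gave the depth, to a tolerance of 0.05 reads. As the values are length-scaled, a limma test on the log scale was used and no count test.

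The groups came from the labels. The members, pathway lists, markers and naming rule (called genes of the lists, and for each member the 3 most correlated genes with a mean of at least 5) were chosen with earlier results of these data known. Replicate numbers paired the libraries only in part, and the main fits used no replicate block. Alternatives were other filters, pseudocounts, normalizations and limma settings, the length corrections, a replicate block and leaving out each library. Refitting the length correction without each library or after other normalizations, and the ratios of members, were added after seeing the data.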

Additional observations from a re-analysis of the deposited data

How the results depend on the processing

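On deposited values the limma calls of members stayed the same under every alternative tried other than length correction and leaving out unc-120(st364) replicate 4. Gene counts named first are for unc-120(st364) against wild type (154 called), then fhod-1(tm2363) against wild type (671), then unc-120(st364) against fhod-1(tm2363) (253). They were 43, 217 and 85 with a filter of at least 10, which leaves out unc-89 and ttn-1, 345, 2238 and 659 with the loess length correction, and 392, 3069 and 896 with the slope as a covariate. Leaving out each library gave 109 to 171, 239 to 986 and 151 to 292. Members called went from 0, 0 and 0 to 3, 0 and 2 with the loess correction and to 1, 0 and 2 with the covariate, and from 0 to between 0 and 1 in unc-120(st364) against fhod-1(tm2363) on leaving out each library. Quantile normalization moved the split of calls from 495 higher and 176 lower to 319 and 310 in fhod-1(tm2363) against wild type, and from 59 and 194 to 94 and 168 in unc-120(st364) against fhod-1(tm2363).

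Small fold changes changed sign. In fhod-1(tm2363) against wild type, unc-22 went from 0.13 to -0.0262 with the loess correction, with or without the replicate block, to -0.107 without wild type replicate 4 and to -0.108 without fhod-1(tm2363) replicate 4. There ketn-1 was 0.00103 without fhod-1(tm2363) replicate 3. In unc-120(st364) against wild type, ttn-1 was 0.0227 without unc-120(st364) replicate 2. On leaving out each library these values reached from -0.108 to 0.351 for unc-22, -0.417 to 0.00103 for ketn-1 and -0.325 to 0.0227 for ttn-1. With the correction refitted, ttn-1 was 0.0252 there without wild type replicate 4, and unc-22 was 0.0357 in fhod-1(tm2363) against wild type without fhod-1(tm2363) replicate 1, in ranges of -0.306 to 0.0252 and -0.0815 to 0.0357. The causes were not tested. Of 10 pairs of members, 5 no longer passed after the correction: unc-22 and ttn-1 (r = 0.481), unc-89 and ketn-1 (0.524), ttn-1 and ketn-1 (0.273), ttn-1 and dim-1 (0.224), and ketn-1 and dim-1 (0.546). The relation of dim-1 to the slope ranged from 0.469 to 0.788 on leaving out each library, and no longer passed without unc-120(st364) replicate 2.

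The replicate numbers paired the libraries only in part. Of 12 same-numbered pairs, 5 had a correlation of deviations over 0.1, and the range was -0.65 to 0.81. For replicate 1 it was 0.58 between wild type and unc-120(st364), 0.47 between wild type and fhod-1(tm2363) and 0.61 between the mutants. The column titles use the same letters in every strain, and whether these mark a shared batch is not given in the sources used here. With the replicate block alone the counts were 188, 947 and 311 genes and 0 members. With the block and the length correction they were 701, 3432 and 1329 genes and 3, 1 and 3 members. The members were unc-22, ketn-1 and dim-1, then ketn-1 (limma adjusted p = 0.0238), then unc-22, dim-1 and unc-89 (adjusted p = 0.0277).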
